A study of Mus musculus with 4 samples.

Results

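The 10 interferon-gamma induced GTPase genes followed here through mammary tumours labelled with and without Nr1d1 are the guanylate-binding proteins Gbp2, Gbp3, Gbp4, Gbp6, Gbp7 and Gbp9 and the immunity-related GTPases Irgm1, Irgm2, Igtp and Iigp1. They were taken by symbol from the deposited count files, where all 10 were found among 23282 gene rows, and all 10 passed the filter on low counts. The tumours came from the mammary glands of 14-week-old female FVB mice that carried PyMT, the polyoma virus middle T oncogene. Libraries labelled Nr1d1-/-;PyMT (n = 2) were compared with libraries labelled Nr1d1+/+;PyMT (n = 2), so every library carried the oncogene. REV-ERBα, the product of Nr1d1, is a transcriptional repressor that belongs to the circadian clock. The labels give neither the promoter behind PyMT nor the design of the Nr1d1 allele, and they do not say that the 2 replicates of a genotype came from separate animals. The spread behind each p-value is therefore that between these 2 libraries a genotype, and it may be technical. It is not the gene's own spread alone, since edgeR draws each gene's estimate toward a trend over all genes tested.

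Interferon-gamma, made mainly by T and NK cells, binds the receptor chains Ifngr1 and Ifngr2 and acts through the kinases Jak1 and Jak2 on transcription factors, among which Irf1 is induced in turn. GBPs are large GTPases of the dynamin superfamily, and IRGs are another family of GTPases. Both families are switched on strongly by this pathway in many mouse cell types, and both gather on the membranes around intracellular parasites and bacteria. Among the IRGs, Irgm1, Irgm2 and Igtp (also called Irgm3) are regulators that sit on the cell's own membranes and keep effector IRGs such as Iigp1 (also called Irga6) inactive there. In tumours these genes are commonly read as a trace of interferon-gamma exposure of the cancer, stromal or immune cells.

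Promoters are shown because interferon-gamma acts on these genes there. RefSeq promoter sequences on GRCm38.p6 were matched by symbol for 6 of 10 members, and Gbp4, Gbp6, Gbp9 and Iigp1 were not matched. The 120 bases before each RefSeq start are given 5′ to 3′ on the gene's strand, and capitals mark matches to 2 motifs on either strand. These were the core of the interferon-stimulated response element (ISRE), GAAANNGAA, and the palindrome of the interferon-gamma activated site (GAS), TTCNNNGAA. Of the start sites that RefSeq gives for Gbp3, the upstream one is shown. RefSeq starts differ from the ends of the GENCODE gene spans given below. The windows of Irgm1 and Irgm2 lie inside those spans, and those of Gbp2 and Gbp3 reach into them.
Gbp2, chr3:142620543-142620662, plus strand: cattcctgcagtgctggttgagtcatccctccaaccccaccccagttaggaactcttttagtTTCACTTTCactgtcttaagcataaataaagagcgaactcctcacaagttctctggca
Gbp3, chr3:142559924-142560043, plus strand: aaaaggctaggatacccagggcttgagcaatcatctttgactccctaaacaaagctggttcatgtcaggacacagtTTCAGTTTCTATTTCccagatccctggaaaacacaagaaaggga
Gbp7, chr3:142530216-142530335, plus strand: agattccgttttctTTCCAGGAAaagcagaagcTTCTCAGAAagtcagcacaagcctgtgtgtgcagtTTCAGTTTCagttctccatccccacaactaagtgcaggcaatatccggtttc
Irgm1, chr11:48871421-48871540, minus strand: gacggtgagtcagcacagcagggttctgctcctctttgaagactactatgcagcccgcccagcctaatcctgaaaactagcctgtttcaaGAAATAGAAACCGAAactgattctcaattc
Irgm2, chr11:58214857-58214976, plus strand: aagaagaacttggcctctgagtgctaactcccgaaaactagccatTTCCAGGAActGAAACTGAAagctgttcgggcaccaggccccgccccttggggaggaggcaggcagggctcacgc
Igtp, chr11:58199436-58199555, plus strand: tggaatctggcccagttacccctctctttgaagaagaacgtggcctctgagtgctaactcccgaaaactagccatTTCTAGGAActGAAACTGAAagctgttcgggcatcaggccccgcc

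The 6 matched members had 7 promoter windows of 250 bases, and 6 of the 7 held an ISRE core, against 7.13% of all 32851 RefSeq windows of that length. The second Gbp3 window held neither motif. The GAS palindrome was present in 3 of the 7 (those of Gbp7, Irgm2 and Igtp), and in 7.02% of all windows. Both motifs stood together in those 3 windows and in 0.752% of all windows. The ISRE core of Gbp2 began 58 bases before the start, that of Gbp7 52 bases, that of Irgm2 64 bases and that of Igtp 34 bases. Gbp3 held 2 overlapping cores (44 and 38 bases before the start), as did Irgm1 (30 and 24 bases), and no ISRE match overlapped a GAS match. In Irgm2 and Igtp the GAS and ISRE matches stood side by side, and these neighbouring promoters shared a run of 55 identical bases. A match is a description of the letters and shows no binding.

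The 4 libraries held 15905404 and 18017279 counts in the libraries labelled Nr1d1-/- (replicates 1 and 2), against 19116279 and 17768820 counts in those labelled Nr1d1+/+. Levels are CPM, each library's counts as a rate per unit of TMM-scaled depth, and 3 counts stood for 0.142 to 0.220 CPM. Nr1d1 itself was at 10.6 and 12.8 CPM in libraries labelled Nr1d1-/-, against 20.2 and 10.3 CPM in those labelled Nr1d1+/+. The groups overlapped, and edgeR's test did not call the gene (log2 fold -0.37 ± 0.35 SE, adjusted p = 0.437), so the level of its transcript does not check the labels and genotypes are given throughout as labelled. The sources used here do not say which part of the gene the allele removes. The library labelled Nr1d1-/- replicate 1 stood apart in skeletal muscle markers, whose summed level was 838 CPM there and 6.76 CPM in replicate 2, against 3.69 and 2.59 CPM in the libraries labelled Nr1d1+/+. The ribosomal RNA precursor Rn45s took 4.36% and 7.64% of counts with the Nr1d1-/- label, against 2.94% and 3.39% with the Nr1d1+/+ label, and its part in the results below was not tested. Mammary epithelial markers were abundant in every library, at 24770 and 21390 CPM summed over 12 genes with the Nr1d1-/- label, against 19100 and 18050 CPM with the Nr1d1+/+ label. Most of each sum was Csn3, at 14169 and 11635 CPM with the Nr1d1-/- label, against 12334 and 12217 CPM with the Nr1d1+/+ label. Csn3 was not called, while 4 of the 12 were called higher and 1 lower by edgeR.

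Of the 10 GTPase genes, 9 fell in the libraries labelled Nr1d1-/-, 0 rose, and Gbp2 was not called. In the same test 17.3% of all 14801 genes were called lower and 16.5% higher (edgeR's quasi-likelihood test, Benjamini-Hochberg adjusted p under 0.05). The median log2 fold of the 10 genes was -1.52, against -0.01 over all genes tested. For all 10, both Nr1d1-/- libraries lay below both Nr1d1+/+ libraries, an arrangement that 36.2% of all genes had. Summed over the 10, the level was 141 and 219 CPM in libraries labelled Nr1d1-/-, against 352 and 446 CPM in libraries labelled Nr1d1+/+. In bulk tumour RNA, fewer cells that express these genes and less RNA per cell cannot be told apart. Without the library labelled Nr1d1+/+ replicate 2, only Gbp7, Irgm1 and Irgm2 were called lower, against 7.62% of all genes in that fit. Without Nr1d1-/- replicate 1, 7 of the 10 were, against 13.2% of all genes.

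**Figure D1:**
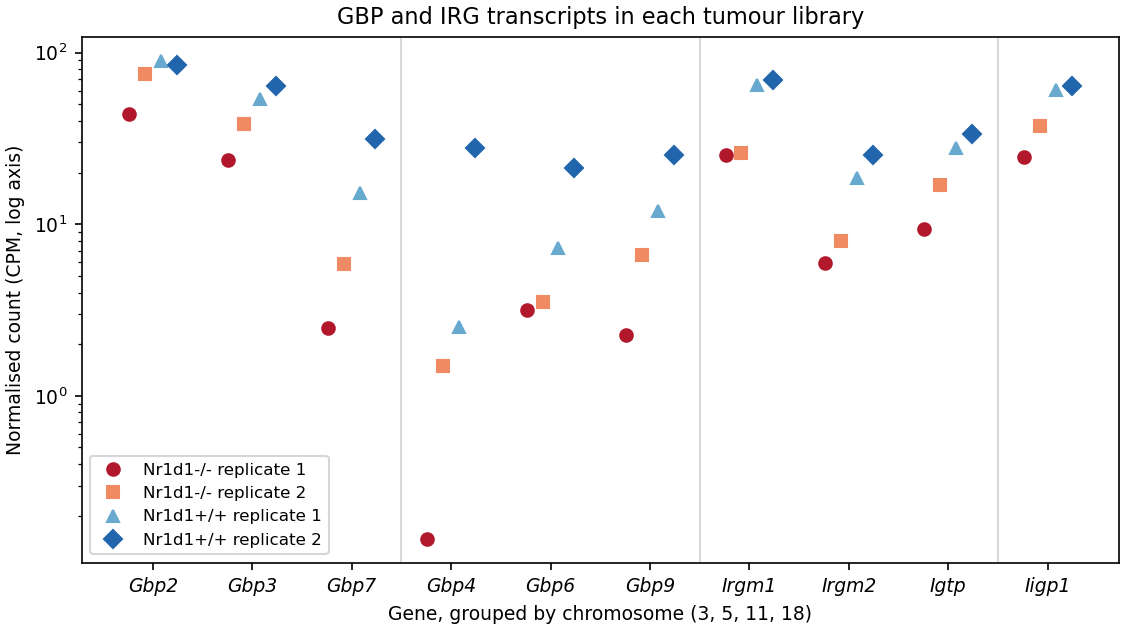
Level of each of the 10 GTPase genes in each of the 4 libraries, in TMM-scaled CPM on a log axis, with 1 point for each library and grey lines between chromosomes. Both points of the Nr1d1-/- label lie below both points of the Nr1d1+/+ label for all 10 genes, and the gap between replicates is widest for Gbp4.

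Of the 6 GBP genes, 3 lie side by side on chromosome 3, on the plus strand (GRCm38). Gbp2 (142620602 to 142638008, 11 exons) coats the vacuole of Toxoplasma in infected mouse cells and had the highest level per kilobase of exon of the 10 under both labels. It was at 43.9 and 74.8 CPM in libraries labelled Nr1d1-/-, against 89.7 and 84.7 CPM in libraries labelled Nr1d1+/+. The groups did not overlap, but the 2 Nr1d1-/- libraries lay further apart (1.70-fold) than replicate 2 of that label lay from the lower Nr1d1+/+ library. Its log2 fold of -0.55 ± 0.25 (SE) was not called (edgeR adjusted p = 0.121). Without Nr1d1-/- replicate 2 it was called, at -1.01 (adjusted p = 0.0120).

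Gbp3 (142560026 to 142573209, 14 exons), which also gathers at that vacuole, was at 23.6 and 38.6 CPM with the Nr1d1-/- label, against 53.6 and 64.0 CPM with the Nr1d1+/+ label. Its mean fell to 52.9% of that in Nr1d1+/+ libraries (31.1 ± 10.6 against 58.8 ± 7.36 CPM, SD, n = 2 each; log2 fold -0.92 ± 0.26 SE, edgeR adjusted p = 0.0260). Without Nr1d1-/- replicate 1 (log2 fold -0.61, adjusted p = 0.0916) or Nr1d1+/+ replicate 2 (-0.80, adjusted p = 0.118) it was not called. Gbp7 (142530342 to 142550149, 11 exons), which takes part in the oxidative defence of mouse macrophages, was at 2.49 and 5.83 CPM with the Nr1d1-/- label, against 15.2 and 31.5 CPM with the Nr1d1+/+ label. Replicates differed by 2.34-fold with the Nr1d1-/- label and 2.06-fold with the Nr1d1+/+ label, and the groups did not overlap. Gbp7 fell by 2.46 on the log2 scale (± 0.47 SE, edgeR adjusted p = 0.00599), the largest change on this chromosome, and it was called in all 16 alternative analyses.

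The other GBP members lie on the minus strand of chromosome 5. Gbp6 (105270702 to 105293698, 8 exons) was at 3.15 and 3.54 CPM with the Nr1d1-/- label, against 7.29 and 21.3 CPM with the Nr1d1+/+ label. Gbp9 (105077630 to 105139539, 12 exons) was at 2.27 and 6.58 CPM with the Nr1d1-/- label, against 11.9 and 25.4 CPM with the Nr1d1+/+ label. Both proteins have been seen at the Toxoplasma vacuole in mouse cells, and both genes were highest in Nr1d1+/+ replicate 2, at 2.92 times (Gbp6) and 2.14 times (Gbp9) the level of replicate 1. Gbp6 fell by 2.09 on the log2 scale (± 0.53 SE, adjusted p = 0.0169) and Gbp9 by 2.05 (± 0.51 SE, adjusted p = 0.0165), both by edgeR's test. Neither was called without Nr1d1+/+ replicate 2, where Gbp6 was at -1.14 (adjusted p = 0.167) and Gbp9 at -1.42 (adjusted p = 0.106).

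Gbp4 (105115767 to 105139586, 11 exons) differed most between single libraries. It had 2 and 24 counts (0.147 and 1.49 CPM) in libraries labelled Nr1d1-/-, against 53 and 580 counts (2.51 and 27.8 CPM) in libraries labelled Nr1d1+/+. The 2 counts of Nr1d1-/- replicate 1 allow 0.0178 to 0.530 CPM (exact 95% interval, counting error only), so that library lay below the other 3. Replicate 2 of the Nr1d1+/+ label was 11.1 times replicate 1, a wider gap than that between Nr1d1+/+ replicate 1 and Nr1d1-/- replicate 2. Gbp4 fell by 4.12 on the log2 scale (± 1.17 SE, adjusted p = 0.0267 in edgeR's test), the largest change of the 10 and the least precise. Its log2 fold was -1.55 (adjusted p = 0.278) without Nr1d1+/+ replicate 2, -5.04 (adjusted p = 0.000630) without Nr1d1+/+ replicate 1, -6.64 (adjusted p = 0.0258) without Nr1d1-/- replicate 2 and -3.34 (adjusted p = 0.0625) without Nr1d1-/- replicate 1.

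The regulatory IRGs lie on chromosome 11. Irgm1 (48861968 to 48871683, minus strand, 4 exons), needed by mice against mycobacteria and for the survival of T cells during infection, was at 25.1 and 26.0 CPM with the Nr1d1-/- label, against 65.1 and 68.8 CPM with the Nr1d1+/+ label. Its replicates differed by 1.03-fold with the Nr1d1-/- label and 1.06-fold with the Nr1d1+/+ label, the closest agreement in both groups at once among the 10 genes. Irgm1 fell to 38.2% of the mean in Nr1d1+/+ libraries (25.57 ± 0.604 against 66.98 ± 2.59 CPM, SD, n = 2 each; log2 fold -1.39 ± 0.19 SE, edgeR adjusted p = 0.00246). With any single library left out its log2 fold stayed between -1.47 and -1.37.

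Irgm2 (58199618 to 58222782, plus strand, 4 exons), a Golgi-associated regulator, was at 5.94 and 7.94 CPM with the Nr1d1-/- label, against 18.5 and 25.5 CPM with the Nr1d1+/+ label. Igtp (58199556 to 58207591, plus strand, 3 exons), an endoplasmic reticulum protein that mice need against Toxoplasma, was at 9.38 and 16.8 CPM with the Nr1d1-/- label, against 27.9 and 33.4 CPM with the Nr1d1+/+ label. Irgm2 fell by 1.66 on the log2 scale (± 0.30 SE, edgeR adjusted p = 0.00507) and Igtp by 1.22 (± 0.30 SE, adjusted p = 0.0159). Irgm2 was called in all 16 alternatives. Igtp was not called without Nr1d1+/+ replicate 2 (log2 fold -1.10, adjusted p = 0.0774). Their annotated spans overlap on the same strand, as do those of Gbp4 and Gbp9, so reads between these neighbours may have been split by the counting.

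Iigp1 (chromosome 18, 60376027 to 60392634, plus strand, 4 exons) is the effector of the 4 IRGs, which loads onto the Toxoplasma vacuole and helps to rupture it. It was at 24.6 and 37.2 CPM with the Nr1d1-/- label, against 60.5 and 63.7 CPM with the Nr1d1+/+ label. The Nr1d1-/- libraries differed by 1.51-fold and the Nr1d1+/+ libraries by 1.05-fold. Iigp1 fell to 49.8% of the mean in Nr1d1+/+ libraries (log2 fold -1.004 ± 0.234 SE, edgeR adjusted p = 0.0128). Without Nr1d1+/+ replicate 2 its fold was almost the same (-0.99), but it was not called (adjusted p = 0.0520).

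**Figure D2:**
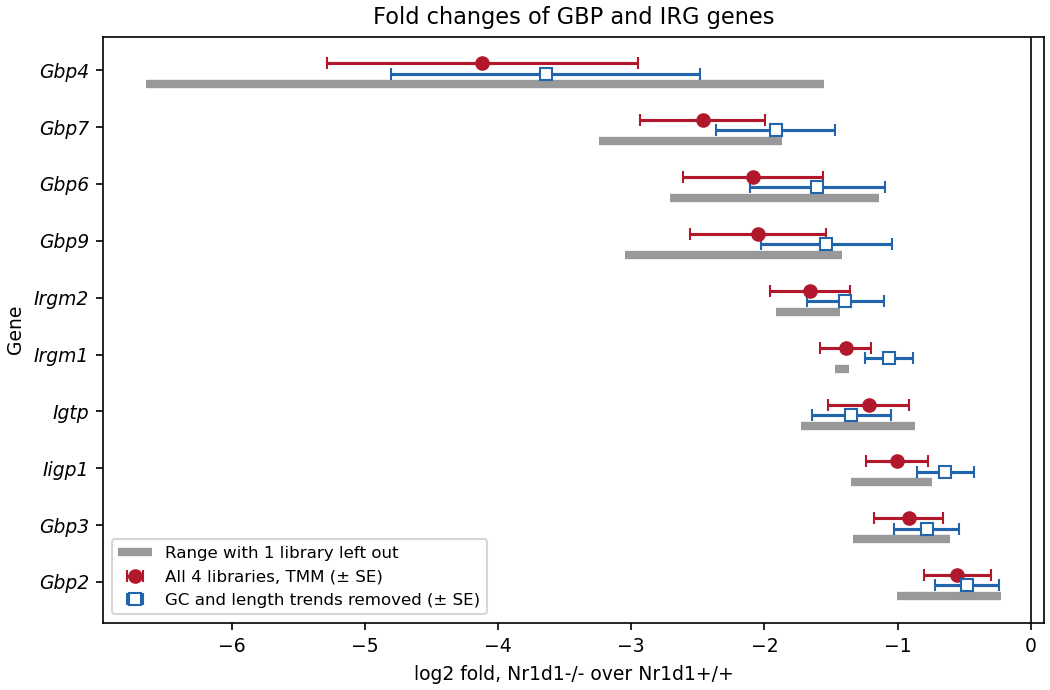
Log2 fold (Nr1d1-/- over Nr1d1+/+) of each GTPase gene in all 4 libraries with its standard error, beside its fold with GC and length trends removed (± SE) and, as a grey bar, the range of folds with 1 library left out. Every value lies below 0, those of Irgm1 with a library left out lie between -1.47 and -1.37, and those of Gbp4 run from -6.64 to -1.55.

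Gene composition differed between the 10 and the rest, and the folds were also computed with each library's trends on GC content and transcript length removed. The median GC content was 44.2% for the 10 genes, against 49.7% for all genes tested, and the median longest transcript was 3680 bases, against 3281 bases. With those trends removed, 5 of the 10 were called lower (Gbp3, Gbp7, Irgm1, Irgm2 and Igtp), against 11.3% of all 14646 genes with both properties, and the median log2 fold was -1.37. Gbp4 (-3.64, adjusted p = 0.0528), Gbp6 (-1.60, adjusted p = 0.0509), Gbp9 (-1.54, adjusted p = 0.0530) and Iigp1 (-0.64, adjusted p = 0.0606) then missed the threshold of edgeR's test. Igtp, the most GC-rich of the 10 at 49.5%, had the only log2 fold that was larger in size after removal (-1.35).

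The single libraries had the same order for nearly all members. All 10 genes were lowest in Nr1d1-/- replicate 1, and 9 were highest in Nr1d1+/+ replicate 2, Gbp2 being the exception. How many of all genes had this order was not counted, so it is not shown to be particular to the members. As log2 levels centred on each gene's mean, the median of the 10 was -1.02 and -0.44 in Nr1d1-/- replicates 1 and 2, against 0.49 and 0.91 in Nr1d1+/+ replicates 1 and 2. The step between the replicates of a label was compared with that of all genes: its median size was 0.74 on the log2 scale with the Nr1d1-/- label and 0.36 with the Nr1d1+/+ label, against 0.33 and 0.26 over all genes tested. Members differed in how well their replicates agreed. Irgm1 and Irgm2 differed by at most 1.37-fold within either label, while Gbp2, Gbp3, Igtp and Iigp1 differed by 1.51-fold to 1.79-fold between Nr1d1-/- libraries and by at most 1.20-fold between Nr1d1+/+ libraries. Gbp4, Gbp6, Gbp7 and Gbp9 differed by 2.06-fold or more between the Nr1d1+/+ libraries.

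**Figure D3:**
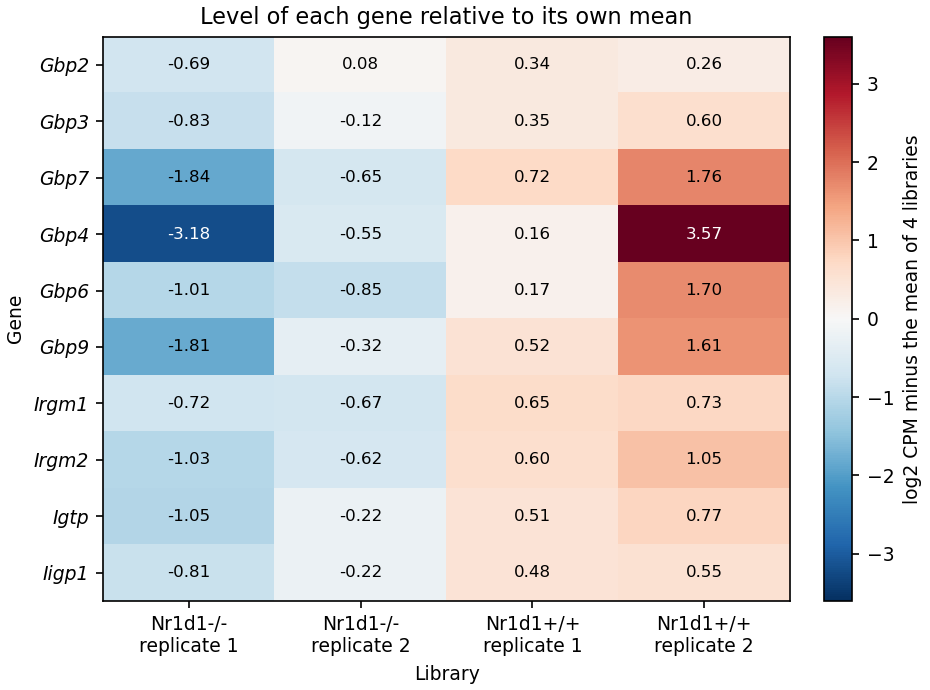
Heat map of the log2 CPM of each GTPase gene (rows) in each library (columns), minus the gene's mean over the 4 libraries. The median of each column lies at -1.02 and -0.44 in the Nr1d1-/- libraries and at 0.49 and 0.91 in the Nr1d1+/+ libraries, and Gbp2 in Nr1d1-/- replicate 2 is the only Nr1d1-/- value above its gene's mean.

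By place in the genome, the 3 genes of chromosome 3 summed to 70.0 and 119 CPM with the Nr1d1-/- label, against 159 and 180 CPM with the Nr1d1+/+ label. The 3 genes of chromosome 5 summed to 5.57 and 11.6 CPM with the Nr1d1-/- label, against 21.7 and 74.5 CPM with the Nr1d1+/+ label. The 3 genes of chromosome 11 summed to 40.5 and 50.8 CPM with the Nr1d1-/- label, against 112 and 128 CPM with the Nr1d1+/+ label. The chromosome 5 genes thus showed the widest gap between the Nr1d1+/+ libraries. Of the 10 nearest tested genes outside both families, on each side of these places, 4 were called lower, 2 higher and 4 not, where 17.3% of all genes were called lower. Those called lower included Lrrc8b, 122 kb from the chromosome 5 genes (log2 fold -2.70, edgeR adjusted p = 0.0145). They also included Isoc1, 1700 kb before Iigp1 (-0.99, adjusted p = 0.0213), and Smim3, 81.6 kb after it (-0.88, adjusted p = 0.0336). All 3 lost their call without Nr1d1+/+ replicate 2. The nearest to Irgm1, Trim7 at 9.76 kb, had a log2 fold of -0.37 (adjusted p = 0.562, edgeR). Between Isoc1 and Iigp1 lie genes of the families themselves. Among them Gm4841 was called higher (log2 fold 1.47, edgeR adjusted p = 0.00223), and Gm4951 and F830016B08Rik were not called.

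Per kilobase of merged exon, the order of levels in libraries labelled Nr1d1-/- was Gbp2 (23.6 CPM per kb), Gbp3 (9.53), Igtp (6.48), Iigp1 (5.31), Irgm1 (4.40), Irgm2 (1.88), Gbp9 (0.855), Gbp7 (0.741), Gbp6 (0.562) and Gbp4 (0.109). In libraries labelled Nr1d1+/+ it was Gbp2 (34.7 CPM per kb), Gbp3 (18.01), Igtp (15.2), Irgm1 (11.5), Iigp1 (10.7), Irgm2 (5.96), Gbp7 (4.16), Gbp9 (3.61), Gbp6 (2.40) and Gbp4 (2.02). Neighbours whose libraries overlapped, so that their order is not fixed, were Gbp3 with Igtp and Gbp7 with Gbp9 under both labels. Under the Nr1d1-/- label, Igtp with Iigp1, Iigp1 with Irgm1 and Gbp7 with Gbp6 also overlapped, and under the Nr1d1+/+ label, so did Irgm2 with Gbp7, Gbp9 with Gbp6 and Gbp6 with Gbp4. By mean level, Gbp2 stood first and Gbp4 last under both labels, but the place of Gbp4 was not fixed under the Nr1d1+/+ label. By longest transcript in place of merged exons, Iigp1 (19.9 CPM per kb in Nr1d1+/+ libraries) and Irgm1 (17.5) stood above Igtp (15.2).

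Sequence shared within the families bears on how far single members can be told apart. Of the 50-base words in a gene's GENCODE transcripts, 49.9% of those of Gbp6 also occurred in another listed GBP or IRG gene, mostly in Gbp10 (45.9%). The share was 11.8% for Igtp, 8.05% for Gbp9, 7.53% for Gbp4 and 6.79% for Irgm2. It was 3.75% for Gbp3, 2.26% for Gbp7, 2.03% for Gbp2, 1.51% for Iigp1 and 0 for Irgm1. The value of Gbp6 is therefore uncertain as to which copy its reads came from, and the sources used here do not say how the submitters treated such reads. Gbp10 itself was at 2.71 and 3.23 CPM with the Nr1d1-/- label, against 4.49 and 27.8 CPM with the Nr1d1+/+ label, and was called lower (log2 fold -2.43 ± 0.76 SE, edgeR adjusted p = 0.0365). Gbp10 lost its call when either Nr1d1-/- library or Nr1d1+/+ replicate 2 was left out, and also once GC and length trends were taken out.

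Of the other GBP and IRG genes, 17 were tested: 3 were called lower, 1 higher and 13 not, with a median log2 fold of -0.74. Among all genes tested, 17.3% were called lower and 16.5% higher. Besides Gbp10 the lower ones were Tgtp1 and Tgtp2, near-identical copies of an effector IRG that loads onto the Toxoplasma vacuole. Tgtp1 was at 1.98 and 1.99 CPM with the Nr1d1-/- label, against 6.53 and 6.42 CPM with the Nr1d1+/+ label (log2 fold -1.70, adjusted p = 0.0131), and was not called when either Nr1d1+/+ library was left out. Gm4841 rose, at 115 and 95.8 CPM with the Nr1d1-/- label, against 38.8 and 37.2 CPM with the Nr1d1+/+ label (log2 fold 1.47 ± 0.19 SE, adjusted p = 0.00223, edgeR). Its direction was opposite to that of the 10 genes followed here. Gbp5, which promotes inflammasome assembly in mouse macrophages, had a log2 fold of -0.21 (adjusted p = 0.767). Gbp11, with 0 and 0 counts under the Nr1d1-/- label and 0 and 57 counts under the Nr1d1+/+ label, was too low to be tested and was detected in Nr1d1+/+ replicate 2 alone. Without that library, 0 of these other family genes were called lower by edgeR.

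Upstream of the GTPases, the ligand gene Ifng had 0 counts in all 4 libraries, where a floor of 3 counts is 0.142 to 0.220 CPM, so it was not detectable at this depth. Of 22 tested genes of interferon-gamma signalling, 10 were called lower, 1 higher (the T-box factor Eomes, not called when either Nr1d1+/+ library was left out) and 11 not, with a median log2 fold of -0.36. In the same test 17.3% of all genes were called lower and 16.5% higher. The ligand-binding receptor chain Ifngr1 was at 47.8 and 51.0 CPM with the Nr1d1-/- label, against 48.4 and 52.5 CPM with the Nr1d1+/+ label (log2 fold -0.03, edgeR adjusted p = 0.915). The signalling chain Ifngr2 fell, at 26.0 and 23.0 CPM with the Nr1d1-/- label, against 52.2 and 53.0 CPM with the Nr1d1+/+ label (log2 fold -1.10 ± 0.20 SE, edgeR adjusted p = 0.00499).

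Both receptor kinases were called lower. Jak1 was at 87.6 and 75.0 CPM with the Nr1d1-/- label, against 142 and 212 CPM with the Nr1d1+/+ label (log2 fold -1.13, adjusted p = 0.00724). Jak2 had a log2 fold of -0.96 (adjusted p = 0.0306) and was not called without Nr1d1-/- replicate 1 or Nr1d1+/+ replicate 2, with the GC and length trends removed, or with no filter. Irf1, a transcription factor that acts on GBP promoters, fell: 17.9 and 22.3 CPM with the Nr1d1-/- label, against 41.9 and 42.0 CPM with the Nr1d1+/+ label (log2 fold -1.06 ± 0.22 SE, edgeR adjusted p = 0.00785). Irf8, a factor of myeloid cells, had a log2 fold of 0.44 (adjusted p = 0.368) and Irf9, a factor of the interferon response, one of -0.59 (adjusted p = 0.0395), which was not called with any of the 4 libraries left out.

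Of the inhibitors of the pathway, the phosphatase Ptpn2, which acts on Jak1, fell. It was at 56.4 and 66.8 CPM with the Nr1d1-/- label, against 142 and 140 CPM with the Nr1d1+/+ label (log2 fold -1.19 ± 0.18 SE, edgeR adjusted p = 0.00298). The feedback inhibitor Socs1 had a log2 fold of 1.66 and was not called (adjusted p = 0.121). Ifngr2, Jak1, Irf1 and Ptpn2 kept their calls under every alternative run on these genes, 13 in all.

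Other known targets of interferon-gamma were called in both directions, as were all genes tested (16.5% higher and 17.3% lower). Of 26 tested, 8 were called higher, 2 lower and 16 not, with a median log2 fold of 0.46. Cd274, which encodes the checkpoint ligand PD-L1, rose: 218 and 170 CPM with the Nr1d1-/- label, against 68.3 and 32.7 CPM with the Nr1d1+/+ label (log2 fold 1.94 ± 0.32 SE, edgeR adjusted p = 0.00382). Cxcl9, a chemokine that draws T cells, was at 18.5 and 12.8 CPM with the Nr1d1-/- label, against 6.48 and 3.54 CPM with the Nr1d1+/+ label (log2 fold 1.64, adjusted p = 0.0116), and was not called without Nr1d1+/+ replicate 2. Nlrc5, the activator of MHC class I genes, was called lower (log2 fold -1.66, adjusted p = 0.0326), but not with any of the 4 libraries left out. Ciita, the activator of MHC class II genes, was not called (log2 fold -0.63, adjusted p = 0.364), and Cxcl10 was too low to be tested. With the GC and length trends removed, 3 of these targets were called higher and 0 lower in edgeR's test, and the median of their log2 folds was 0.15. Scaled by library size only, 3 were called higher and 3 lower, and without Nr1d1+/+ replicate 2, 3 were called higher and 0 lower.

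**Figure D4:**
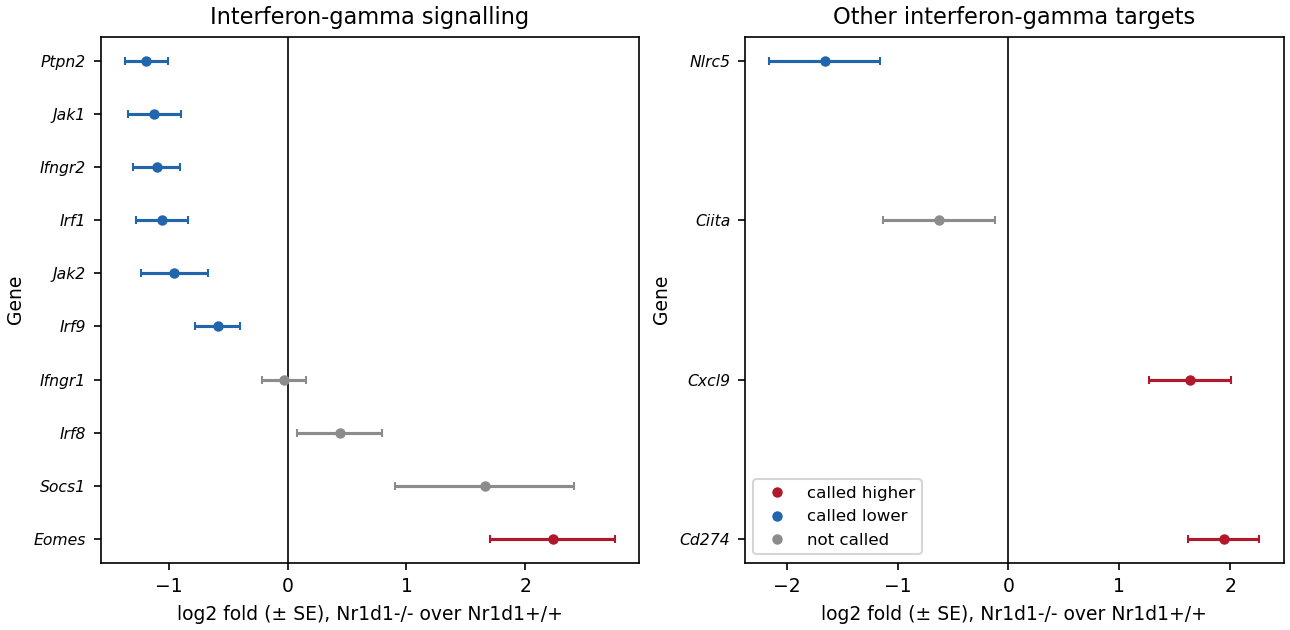
Log2 fold (Nr1d1-/- over Nr1d1+/+, with standard error) of the genes named in the text from interferon-gamma signalling (left) and other interferon-gamma targets (right), coloured by edgeR's call (lower in blue, higher in red, not called in grey). Ifngr2, Jak1, Irf1 and Ptpn2 lie near -1, while Cd274 lies at 1.94 and Nlrc5 at -1.66.

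Cell types that could carry these transcripts were followed by marker lists. Calls in these lists stand beside 16.5% of all genes called higher and 17.3% called lower. Markers of T and NK cells summed to 26.8 and 27.7 CPM with the Nr1d1-/- label, against 22.2 and 28.1 CPM with the Nr1d1+/+ label, and of the 11 of 20 that could be tested 2 were called higher (Cd3d and Cd2) and 2 lower (Gzmb and Il2rb). All 4 of these calls were lost when either Nr1d1+/+ library was left out, those of Cd2 and Gzmb also without Nr1d1-/- replicate 2, and that of Il2rb also without Nr1d1-/- replicate 1. Of the 11, 7 had a negative log2 fold, and the median was -0.37. Cd3d alone was at 11.6 and 10.4 CPM with the Nr1d1-/- label, against 3.93 and 3.97 CPM with the Nr1d1+/+ label. Without Cd3d, a choice made after seeing the data, the sum was 15.2 and 17.3 CPM with the Nr1d1-/- label, against 18.3 and 24.1 CPM with the Nr1d1+/+ label, and thus lower in both Nr1d1-/- libraries. Macrophage markers summed to 545 and 718 CPM with the Nr1d1-/- label, against 430 and 502 CPM with the Nr1d1+/+ label, with 6 of 15 called higher and 1 lower. Endothelial markers summed to 98.4 and 138 CPM with the Nr1d1-/- label, against 61.6 and 72.1 CPM with the Nr1d1+/+ label, with 5 of 12 called higher. B cell markers summed to 40.1 and 55.7 CPM with the Nr1d1-/- label, against 56.6 and 59.4 CPM with the Nr1d1+/+ label, so that this sum was lower in both Nr1d1-/- libraries. Most of it was Blnk, at 27.7 and 42.4 CPM with the Nr1d1-/- label, against 53.1 and 56.3 CPM with the Nr1d1+/+ label. Blnk was not called, while Cd22 was called higher (log2 fold 1.98). Neutrophil markers summed to 280 and 189 CPM with the Nr1d1-/- label, against 110 and 117 CPM with the Nr1d1+/+ label. Most of that sum was Cxcr2 alone, at 231 and 160 CPM with the Nr1d1-/- label, against 89.7 and 90.7 CPM with the Nr1d1+/+ label. Of the 4 tested, 2 were called higher (Csf3r and Cxcr2), and the others overlapped between the labels. Adipocyte markers summed to 170 and 114 CPM with the Nr1d1-/- label, against 29.8 and 58.8 CPM with the Nr1d1+/+ label, with 4 of 8 called higher. Markers of dendritic cells summed to 96.4 and 49.7 CPM with the Nr1d1-/- label, against 18.6 and 15.2 CPM with the Nr1d1+/+ label. Of the 7 tested, only 2 were called higher (Siglech and Xcr1). Siglech alone was at 69.3 and 23.6 CPM with the Nr1d1-/- label, against 7.52 and 3.69 CPM with the Nr1d1+/+ label. Red blood cell markers also had higher sums with the Nr1d1-/- label (2017 and 2194 CPM, against 453 and 581 CPM with the Nr1d1+/+ label). The part of all these cells in the lower GTPase levels was not tested.

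By pattern over the 4 libraries, the genes most like the median of the 10 were Ect2, Ap3m1, Pcsk7, Sav1, Ndst1 and B230219D22Rik, among 10822 candidates with a mean of at least 5 CPM. Their root mean square distance from that median was 0.0196 to 0.0467 on the log2 scale. Ect2, a nucleotide exchange factor that acts in cell division, was at 4.03 and 6.02 CPM with the Nr1d1-/- label, against 11.4 and 15.3 CPM with the Nr1d1+/+ label. These genes were picked for their closeness to the median and match it rather than any single member, since the 10 members themselves lay 0.126 (Irgm2) to 1.72 (Gbp4) from it.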

How the data were processed

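Transcript levels were measured in 4 mammary tumour libraries, made from total RNA by a stranded kit (Clontech SMARTer), per the labels' protocols. The submitters' processing notes name TopHat and mm10. What the authors deposited are raw counts, listed by gene symbol. The sources used here do not say which counting program or annotation was used, or whether counting used the strand. Everything else was computed here.

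The filter filterByExpr (minimum count 10) of edgeR 4.0.16 left 14801 of 23282 rows. Counts were scaled with TMM (factors 0.859 and 0.895 with the Nr1d1-/- label, 1.11 and 1.18 with the Nr1d1+/+ label) and tested with edgeR's quasi-likelihood F test (legacy=FALSE), genotype as the only term and 2 residual degrees of freedom, with Benjamini-Hochberg adjustment over all genes tested. A gene was called at an adjusted p under 0.05, and the standard error is the log2 fold divided by the square root of F. The common biological coefficient of variation was 0.249, and the fit drew each gene's own variation toward a trend over all genes tested. Unless another setting is named, log2 folds run Nr1d1-/- over Nr1d1+/+. GC and length trends were natural splines of 5 degrees of freedom for each library, passed to edgeR as offsets. Gene coordinates, exons and transcripts are from GENCODE M21 (GRCm38, the assembly of mm10), and exon numbers count merged exon blocks. Promoters are from RefSeq. The script was tested on simulated data. Intervals and floors cover counting error only.

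The 10 genes, the lists and the motifs were chosen with earlier results of these data known. All 10 members, tested genes of both families and of interferon-gamma signalling, up to 4 called genes with the lowest p of other lists, and Cxcl9, Cxcl10, Ciita and Nlrc5 could be named, as could the 6 genes nearest in pattern. Trim7, Lrrc8b, Isoc1 and Smim3, as neighbours, Csn3 and Blnk, as the largest parts of their sums, and the called markers of T and NK cells were named after their values were seen. A few genes open to naming are not reported here. A permutation test of 2 against 2 samples cannot give a two-sided p below 0.333, so none is reported. Alternatives used DESeq2 1.42.0 and limma 3.58.1 (voom). Figures were drawn with matplotlib 3.10.9.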

Additional observations from a re-analysis of the deposited data

How the results depend on the processing

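Over 16 alternative analyses, all 160 values of the 10 genes kept their sign, 140 kept their call, 18 lost it and 2 (both Gbp2) gained it. With each library left out in turn, 3 to 10 of the 10 genes were called lower and 0 higher, 1036 to 2358 of all genes were called higher and 1170 to 2401 lower, and the median log2 fold of the 10 was -1.81 to -1.26. Calls fell to 3 without Nr1d1+/+ replicate 2, and the cause was not tested. Each such fit leaves 1 library in a group, assumed to vary like the other genotype. Scaling by library size only gave 1281 genes higher and 4410 lower, against 2446 and 2565 with TMM; it moved the median of all genes to -0.38 and called all 10 members lower. With GC and length trends removed, 1656 genes and 5 of the 10 members were called lower. A minimum absolute log2 fold of 1 left 1501 genes higher. DESeq2 called 8 of the 10 lower (17.4% of all genes) and limma-voom 7 (16.4%). The labels do not say what replicate numbers share, and deviations of same-numbered libraries correlated at 0.03. With the replicate block, 2622 genes were called higher, 2704 lower and 9 of the 10 members lower, with a median log2 fold of -1.53. Depth limits Gbp4 in Nr1d1-/- replicate 1 (2 counts), Ifng and Gbp11.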

Other observations

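Genes that act with GBPs once a vacuole is breached were mixed. Of 9 tested inflammasome genes, 3 were called higher and 0 lower by edgeR, which called 16.5% of all genes higher and 17.3% lower. Casp4, the mouse caspase-11 that senses bacterial lipopolysaccharide exposed by GBPs, averaged 45.2 ± 2.38 CPM with the Nr1d1-/- label and 18.2 ± 1.73 CPM with the Nr1d1+/+ label (SD, n = 2 each; log2 fold 1.31, edgeR adjusted p = 0.00353). Pycard, the inflammasome adaptor ASC, averaged 78.3 ± 27.8 CPM with the Nr1d1-/- label and 25.7 ± 1.23 CPM with the Nr1d1+/+ label (log2 fold 1.60, edgeR adjusted p = 0.00363). Of 18 tested partners in vacuole marking, 2 were called higher and 3 lower. Lgals8, a galectin that marks ruptured vacuoles, averaged 15.0 ± 3.94 CPM with the Nr1d1-/- label and 49.1 ± 0.113 CPM with the Nr1d1+/+ label (log2 fold -1.71, edgeR adjusted p = 0.00266). Another galectin, Lgals3, went the other way, at 114 ± 7.91 CPM against 53.0 ± 23.1 CPM (log2 fold 1.11, edgeR adjusted p = 0.0173). Map1lc3a was also called higher (log2 fold 1.30, edgeR adjusted p = 0.00235). Neither Lgals3 nor Map1lc3a was called with GC and length trends removed.

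Among all genes tested, 16.5% were called higher and 17.3% lower. Of 24 tested genes known mainly as targets of type I interferon, 3 were called higher, 7 lower and 14 not, with a median log2 fold of -0.20. Without Nr1d1+/+ replicate 2 these counts were 1 higher and 0 lower. Irf7 rose (log2 fold 1.12, edgeR adjusted p = 0.00835) while Ddx58, the sensor RIG-I, was called lower (log2 fold -1.06, edgeR adjusted p = 0.0150) and lost its call without Nr1d1-/- replicate 1 or Nr1d1+/+ replicate 2, and once GC and length trends were taken out.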
